A study of Mus musculus with 12 samples.

Results

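Dendritic cells grown from mouse bone marrow (BMDC) were examined for their net state when given both the NF-κB inhibitor JSH-23 and lipopolysaccharide (LPS) and were compared with cells given neither agent. By the sample titles, 6 of the 12 RNA-seq libraries of the series belong to this comparison, with 3 libraries of the group WTL + JSH23 (replicates 1 to 3) and 3 libraries of the group WT (replicates 4 to 6). The other 6 libraries, 3 with LPS alone (WTL) and 3 with JSH-23 alone (WT + JSH23), served to estimate the spread between libraries and to place the combined state beside each agent alone. All cells were grown for 6 days from bone marrow of C57BL/6 CreER mice with GM-CSF, with the medium changed every 2 days, and their Ctcf gene was intact. The mice were adults of both sexes and carried Cre fused to an oestrogen receptor domain, so that the cells called WT here are transgenic in every group, and the labels do not say whether these cultures received tamoxifen. By the study's methods, floating cells were selected for CD11c on beads. WTL + JSH23 cells received 100 µM JSH-23 for 3 h, followed by 100 ng/ml LPS for 3 h. The labels do not say whether WT cells were given the solvent of JSH-23, and they give no culture or sequencing batch. Replicate numbers 1 to 3 were used only with JSH-23 and 4 to 6 only without it, so that a batch that followed these numbers and an effect of JSH-23 cannot be told apart. The series calls the libraries of a group biological replicates but does not name the mice they came from, and p values measure only the spread between these libraries.

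LPS comes from the envelope of Gram-negative bacteria, is bound by CD14 and MD-2 and activates the receptor TLR4, whose adaptors MyD88 and TRIF lead to NF-κB, to MAP kinases and to interferon regulatory factors. In dendritic cells this pathway switches on cytokines and chemokines, raises costimulatory molecules and, through type I interferon, induces a large set of interferon-stimulated genes. JSH-23 is a small molecule that keeps the NF-κB subunit RelA out of the nucleus after stimulation. Stress programmes of cells include the Nrf2 antioxidant pathway and the integrated stress response, which runs through the transcription factor ATF4.

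Total expected counts, the read pairs that RSEM assigns to genes, lay between 26497569 and 32559096 in WT and between 24665264 and 29530439 in WTL + JSH23. Of 55335 genes listed, 14357 had enough counts to be tested. In a principal component analysis of all 12 libraries, replicate 3 of WTL + JSH23 lay apart from its partners on the component that held 22.6% of the variance, at 40.3 against 29.5 and 27.5, on the side of JSH-23. Its median absolute log2 deviation from the mean of the other 2 libraries over all genes was 0.112, against 0.082 and 0.089 for these 2. Values without it are given beside the results that it moved most. Levels are given in CPM, the counts of a gene relative to the scaled size of its library. The CD11c gene Itgax was at 634 to 673 CPM in WT and at 592 to 610.1 CPM in WTL + JSH23, whereas none of 11 lymphocyte markers had enough counts to be tested. RNA was bulk, so that fewer cells of a type and less RNA per cell cannot be told apart in any value below.

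To examine the net effect of both agents, expression in WTL + JSH23 was set against WT for each gene. Of 14357 genes, 2165 (15.1%) were called, meaning an adjusted p under 0.05 in the quasi-likelihood test of edgeR and a change of more than 2-fold. Of these, 1046 (7.29% of all genes) were higher with both agents and 1119 (7.79%) were lower. The median log2 fold change was 1.56 over the genes called higher, -1.45 over those called lower and -0.01 over all genes. Changes of more than 16-fold were found for 54 genes called higher and 23 called lower. At the other end, 6877 genes (47.9%) had a 95% confidence interval that lay inside 1.5-fold of WT, which is the sense of "within 1.5-fold" throughout. A further 2252 genes neither passed the adjusted p nor met this bound, so that no statement can be made about them.

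**Figure D1:**
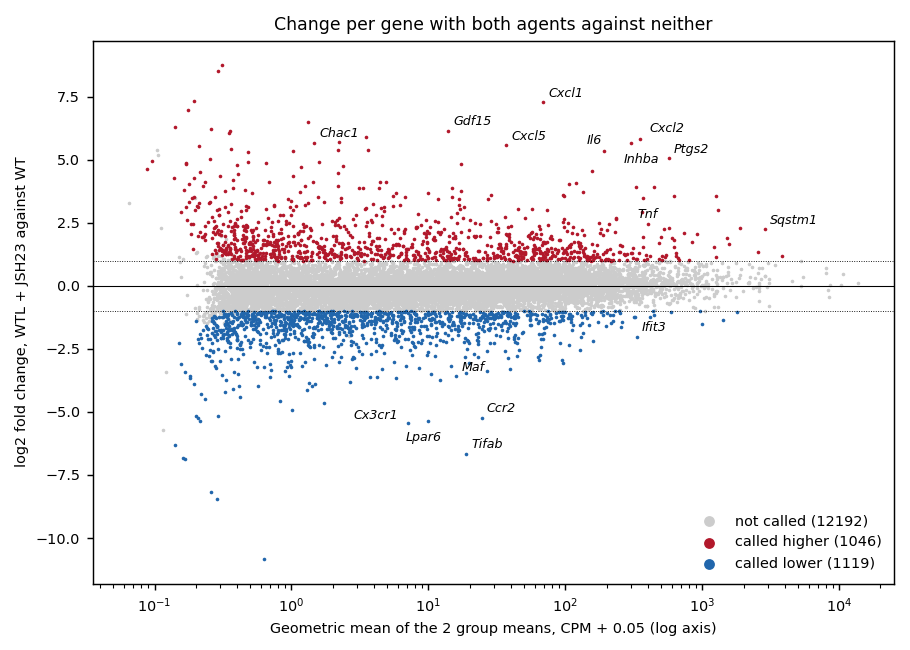
Log2 fold change of WTL + JSH23 against WT for each of the 14357 genes tested, against the geometric mean of the 2 group means in CPM on a log axis. Red points are the 1046 genes called higher and blue points the 1119 called lower, dotted lines mark 2-fold, and genes at levels under 1 CPM scatter most.

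The balance of the calls depended on how the values were processed. Of the called genes 48.3% were higher, against 49.2% with DESeq2 size factors and 43% with upper quartile scaling, whereas limma on log2(TPM + 1), which changes the unit, the pseudocount and the test together, called 439 genes higher among 1198, which is 36.6%, and moved the median of all genes to -0.16. Between WT and WTL + JSH23 the values of the 3 libraries did not overlap for 9467 genes (65.9%).

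The genes described below were grouped in 29 lists. Without a fold threshold 8922 genes (62.1%) passed the adjusted p, 4414 genes (30.7%) higher and 4508 (31.4%) lower, and counts of list members are to be read against these shares. The verbs rose and fell are used only of genes that passed it. Comparisons of WTL + JSH23 with WTL or WT + JSH23 share libraries with the main one, and group levels are therefore given side by side.

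**Figure D2:**
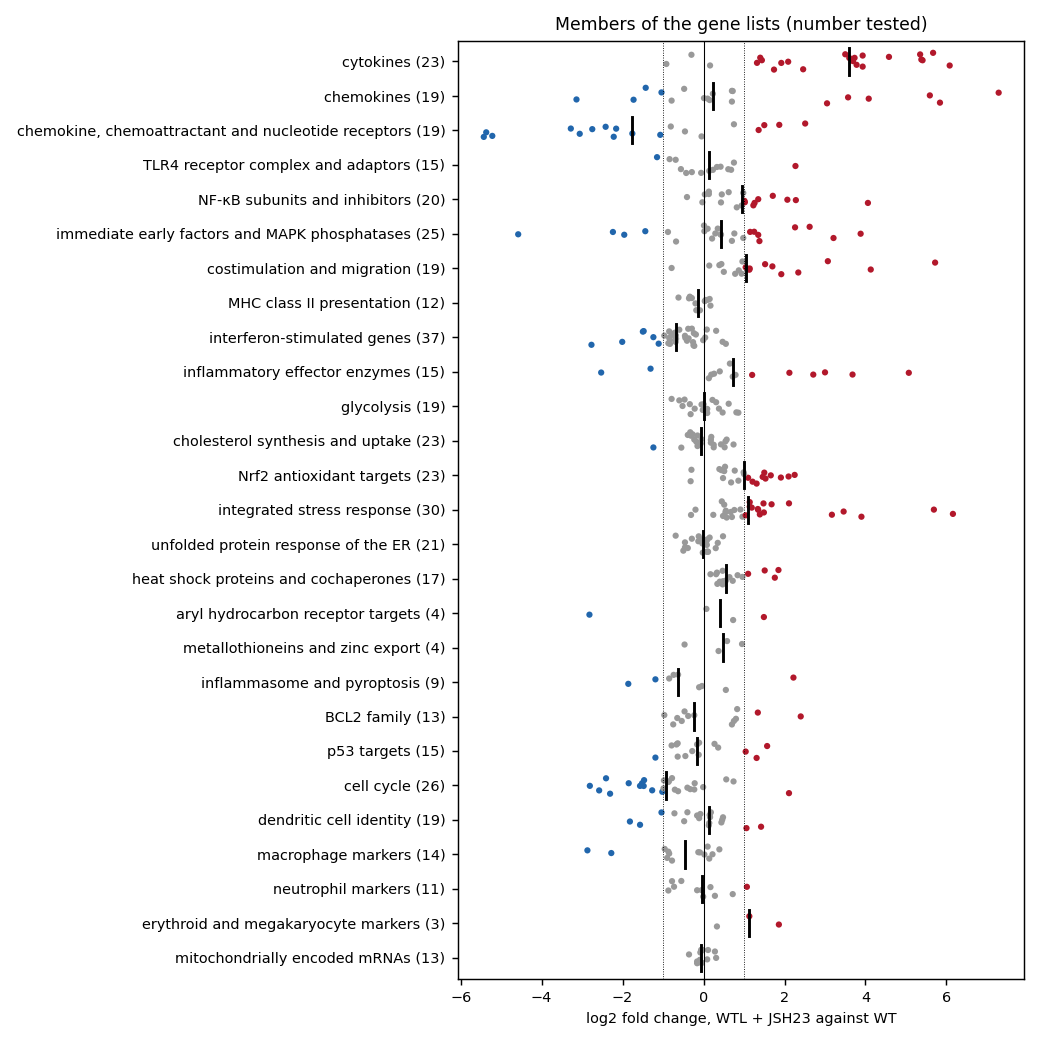
Log2 fold change of WTL + JSH23 against WT for each tested member (points) of the lists with 3 or more tested members, with the median of each list as a black bar and the number tested in parentheses. Red and blue points were called higher and lower, and the vertical scatter within a row carries no meaning. Cytokines, Nrf2 targets and the integrated stress response lie to the right, receptors, cell cycle and interferon-stimulated genes to the left.

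Cytokines were high with both agents. Of 23 cytokine genes tested, 20 were called higher and none lower, with a median log2 fold change of 3.60. Il6, a cytokine of the acute phase response, was at 32.9, 28.7 and 29.0 CPM in the WT libraries and at 1153, 1308 and 1229 CPM in the WTL + JSH23 libraries, a change of 5.35 on the log2 scale (SE 0.0835, adjusted p = 1.07e-21). Its level lay far outside the WT range in each of the 3 libraries, between the 1845 ± 105 CPM of WTL and the 46.7 ± 6.82 CPM of WT + JSH23 (mean ± SD, n = 3). Tnf, which drives local inflammation, stood at 102, 116 and 110.3 CPM without and at 1190, 1246 and 1269 CPM with both agents. That corresponds to 11.3-fold, although JSH-23 alone left Tnf at 31.3 ± 2.34 CPM. Il1b rose from 83.9 ± 2.2 to 1275 ± 152 CPM, and Il1a, whose reads were partly shared with other genes, from 31.9 ± 1.12 to 765 ± 88 CPM.

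The cytokines that dendritic cells use to direct T cells followed. Il12b, the p40 chain shared by IL-12 and IL-23, was at 119.6, 109 and 112 CPM in WT and at 1581, 1720 and 1888 CPM in WTL + JSH23, with a log2 fold change of 3.93 and an adjusted p of 1.19e-19 (SE 0.0826). Il12a, the p35 chain that completes IL-12, rose 12.9-fold from 2.71 ± 0.257 to 35.1 ± 2.8 CPM. Il23a, the p19 chain that completes IL-23, rose 41.8-fold, from a level of only 0.31 ± 0.0259 CPM to 13.1 ± 0.872 CPM. The libraries of the 2 groups did not overlap for any of these chains. Each chain was lower with both agents than in WTL, and the differences passed. The log2 difference was -1.34 for Il12a (88.7 CPM in WTL, adjusted p = 1.44e-14). It was -0.64 for Il12b (adjusted p = 1.94e-07) and -0.34 for Il23a (adjusted p = 0.00671). Against WTL, 24.5% of all genes passed as higher and 24.2% as lower. Il10, which restrains inflammation, was at 0.398, 0.541 and 0.655 CPM and at 18.3, 21.7 and 28.3 CPM with both agents, a 42.6-fold rise. Il10 and Inhba, the subunit of activin A, stood higher with both agents than with LPS alone, by 0.46 (adjusted p = 0.00812) and 0.47 (adjusted p = 0.00133) on the log2 scale. For Il10 the WTL libraries were at 18.3, 17.3 and 13.7 CPM, which met the lowest combined library. Combined replicate 3 was the highest. Inhba reached 2159 ± 214 CPM against 1558 ± 129.5 CPM in WTL, 248 ± 67.4 CPM in WT + JSH23 and 42.4 ± 1.83 CPM in WT. The exceptions in the list were Ifnb1, encoding interferon β, at 0.399 ± 0.0746 CPM in WT and 0.215 ± 0.0944 CPM in WTL + JSH23 (log2 fold change -0.92, adjusted p = 0.087), Il18, at 3.8 and 3.1 CPM (adjusted p = 0.108), and Il15, which passed with a log2 fold change of 0.16 and lay within 1.5-fold of WT.

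**Figure D3:**
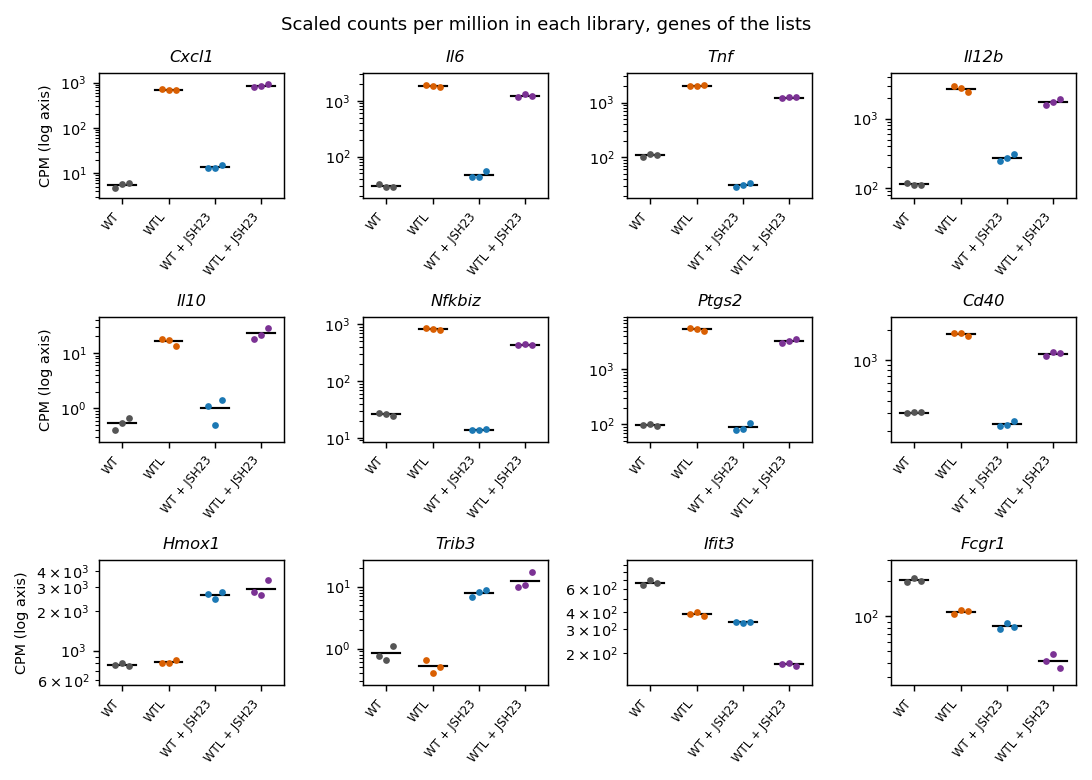
CPM on a log axis in each of the 3 libraries (points) of the 4 groups for 12 genes of the lists, with the group mean as a bar; each panel has its own range. In the combined group Cxcl1, Il6, Tnf, Il12b, Il10, Nfkbiz, Ptgs2 and Cd40 stood with WTL far above WT, Hmox1 and Trib3 with WT + JSH23, and Ifit3 and Fcgr1 below WT.

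Chemokines moved in both directions. Of 19 genes tested, 6 were called higher and 4 lower, with a median of 0.23. Cxcl1, a neutrophil attractant of the CXC family, had the largest rise among the genes that met the naming rule. It (chromosome 5, 90891241 to 90893115, GRCm38) was at 4.74, 5.72 and 6.04 CPM in WT and at 806, 822 and 949 CPM in WTL + JSH23, with a log2 fold change of 7.29 and an adjusted p of 2.19e-23 (SE 0.0872). Every combined library was over 100 times every WT library. Cxcl2 (chromosome 5, 90903871 to 90905938), its neighbour, rose from 46.7 ± 0.741 to 2668 ± 297 CPM, and Cxcl5 from 5.3 ± 0.672 to 255 ± 18.6 CPM. Cxcl2 and Cxcl3 shared reads with other genes in 11 of the 12 libraries. Per transcript length, Cxcl3 ranked 9 among nuclear protein-coding genes with both agents, at 7556 ± 85 TPM, against rank 178 and 733 ± 22.2 TPM in WT. The CC chemokines Ccl3 and Ccl4, which attract monocytes and T cells, rose from 29.1 to 491 CPM and from 15.7 to 131 CPM.

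The 4 chemokines called lower were Cxcl10, Cxcl11, Ccl12 and Ccl7. Cxcl10, a ligand of CXCR3 induced by interferon, stood at 283 ± 18.4 CPM in WT and at 105 ± 11.8 CPM with both agents, a fall by 1.43 on the log2 scale (SE 0.0629, adjusted p = 1.85e-14). Its 2 relatives Cxcl9 and Cxcl11 fell by 0.79 and 3.14, Cxcl11 at a low level of 2.69 CPM in WT. The monocyte attractants Ccl12, Ccl7 and Ccl2 fell by 1.73, 1.04 and 0.48, from 1.55, 1.08 and 12.2 CPM. Ccl22 and Ccl17, which attract regulatory and type 2 helper T cells through CCR4, were abundant in WT and rose by less than 2-fold, Ccl22 from 6407, 6038 and 6435 CPM to 10027, 10087 and 10559 CPM. For Ccl6 the means of the 4 groups lay between 1037 and 1122 CPM.

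Promoters are printed here and below only for genes with a match to the motif of their list. The marked matches were therefore required beforehand. Cxcl1 and Cxcl2 are shown because they had the largest rises of the chemokine list. The bases are the transcript strand, 5′ to 3′, from the RefSeq promoter table (GRCm38.p6), and capitals mark matches to the NF-κB consensus on either strand. The stretches are chr5:90891115-90891234 and chr5:90903743-90903862, both on the plus strand.
Cxcl1: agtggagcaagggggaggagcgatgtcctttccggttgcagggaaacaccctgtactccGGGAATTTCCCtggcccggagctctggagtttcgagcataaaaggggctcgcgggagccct
Cxcl2: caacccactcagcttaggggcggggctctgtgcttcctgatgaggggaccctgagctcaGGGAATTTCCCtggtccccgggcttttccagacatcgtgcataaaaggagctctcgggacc
The same 11 bases are marked in both, where matches on the 2 strands overlap. Within 250 bases upstream of the start, the consensus was found in 5 of 11 chemokine genes of the list that have a promoter in the table (45.5%), in 5 of 15 cytokine genes (33.3%), in 91 of 668 genes called higher (13.6%), in 68 of 778 genes called lower (8.74%), in 1091 of 10216 tested genes (10.7%) and in 8.23% of all 27025 genes of the table, each counted over genes with a promoter. Of the 29 genes with a promoter that lay below all other groups, 7 held it (24.1%). A match is a description of letters and says nothing about binding.

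Receptors for chemokines, chemoattractants and nucleotides fell. Of 19 tested, 11 were called lower and 4 higher, with a median of -1.76. Ccr2 (chromosome 9, 124101950 to 124113557), the receptor through which monocytes leave the marrow, was at 143, 159 and 145 CPM in WT and at 4.75, 4.5 and 2.59 CPM with both agents, 37.3-fold lower (log2 fold change -5.22, SE 0.12, adjusted p = 4.82e-19). Cx3cr1 (chromosome 9, 119901616 to 120069879), the fractalkine receptor of monocytes and macrophages, was at 45.4, 47.5 and 42.8 CPM and at 0.886, 1.47 and 0.778 CPM. In neither gene did a combined library come near a WT library. The annotated span of Cx3cr1 holds 5 other protein-coding genes, and Ccr2 shared reads with other genes in 9 libraries. For both, each agent alone gave an intermediate level, 19.9 ± 0.747 CPM in WTL and 17 ± 3.09 CPM in WT + JSH23 for Ccr2, and 9.54 ± 0.91 and 5.15 ± 0.543 CPM for Cx3cr1.

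Lpar6, a receptor for lysophosphatidic acid, stood near its level with LPS alone. With JSH-23 alone it was at 35.7 ± 1.75 CPM, which was also below WT (log2 fold change -0.81, adjusted p = 9.65e-10). It fell from 62.6 ± 2.17 to 1.5 ± 0.436 CPM with both agents and was at 1.97 ± 0.467 CPM with LPS alone (combined against WTL, log2 difference -0.37, adjusted p = 0.14), but its gene overlaps another protein-coding gene. The C3a receptor C3ar1, the UDP receptor P2ry6 and the ATP-gated channel P2rx7 fell by 3.28, 3.06 and 2.16 on the log2 scale. The 4 receptors called higher were Ccrl2, an atypical receptor that binds chemerin, the formyl peptide receptor Fpr1, and the adenosine receptors Adora2a and Adora2b. Ccrl2 rose from 72.4, 73.5 and 74.6 CPM to 377, 375 and 503 CPM, with replicate 3 the highest. The C5a receptor C5ar1 was at 39.3 ± 2.06 CPM and 37.8 ± 7.57 CPM, within 1.5-fold, although it was at 91.1 CPM with LPS alone and at 16.5 CPM with JSH-23 alone.

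Of 15 components of LPS sensing, 8 passed as higher and 6 as lower, with a median of 0.14. Only 2 were called (13.3%, against 15.1% of all genes). Cd14, the co-receptor that hands LPS to TLR4, was called higher, rising from 236, 244 and 237 CPM to 1089, 1127 and 1239 CPM, and Tab1, a partner of the kinase TAK1, was called lower, from 14.6 ± 0.633 to 6.58 ± 0.329 CPM. Tlr4 itself fell from 40.1 ± 2.98 to 27.1 ± 0.761 CPM, with a log2 fold change of -0.56 and an adjusted p of 4.84e-08 (SE 0.0605). Myd88 and Irak4 fell by 0.29 and 0.43 and lay within 1.5-fold, as did 5 further members.

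Genes of the NF-κB system mostly rose. Of 20 subunits, kinases and inhibitors, 9 were called higher and none lower, with a median of 0.96, and 7 lay within 1.5-fold. Nfkbiz, the nuclear inhibitor-like protein that NF-κB itself induces, was at 27.4, 26.1 and 24.6 CPM in WT and at 424, 452 and 428 CPM with both agents, with a log2 fold change of 4.06 and an adjusted p of 2.19e-23 (SE 0.0486). The combined libraries differed from each other by less than 10% of their mean and stood below the 823 ± 31.7 CPM of WTL and above the 13.8 ± 0.349 CPM of WT + JSH23. Tnfaip3, which encodes the ubiquitin-editing inhibitor A20, rose 4.85-fold and Nfkbia, which encodes IκBα, rose 3.26-fold, from 266 ± 0.541 to 868 ± 44.2 CPM. Zc3h12a, a ribonuclease that degrades cytokine mRNA, rose from 32.5 to 137 CPM. Of the subunits, Nfkb1, Nfkb2 and Rela rose by 0.94, 0.98 and 0.62, whereas Rel and Relb, at 355 against 362 CPM and 300.5 against 328 CPM, lay within 1.5-fold. The only member to fall was Cyld, a deubiquitinase that restrains NF-κB, by 0.41.

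The stretch upstream of Tnfaip3 (chr10:19015411-19015530, minus strand) is printed as an inhibitor gene of the list with a match to the NF-κB consensus, in capitals, close to its start. Of 3 matches within 250 bases upstream of this start, 1 lies in the stretch.
Tnfaip3: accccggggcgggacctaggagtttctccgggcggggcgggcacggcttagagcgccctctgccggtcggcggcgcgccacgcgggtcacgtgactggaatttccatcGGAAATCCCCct
In the list 9 of 16 genes with a promoter held the consensus (56.2%).

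Early transcription factors split within families. Of 25 immediate early genes and MAPK phosphatases, 8 were called higher and 4 lower, with a median of 0.42. Egr1 and Egr3, zinc finger factors of the first minutes of a response, were among the 4. Egr1 stood at 8.96, 8.36 and 9.0 CPM in WT and at 1.63, 2.27 and 1.69 CPM with both agents, 4.71-fold lower, while Egr2 was at 36.3 and 36.5 CPM. Fos fell by 1.96 from 10.4 CPM, and its relative Fosl2 rose from 29.6 ± 1.97 to 142 ± 2.36 CPM. The phosphatases that switch off MAP kinases, Dusp1, Dusp2 and Dusp4, rose by 1.38, 1.35 and 3.21, and Dusp5 fell by 0.68.

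Genes of T cell costimulation and of migration rose almost as a whole. Of 19, 18 passed as higher, 10 of them with more than 2-fold, with a median of 1.04. Cd40, the receptor through which T cells license dendritic cells, was at 301, 309.5 and 307 CPM in WT and at 1108, 1191 and 1180 CPM with both agents, with a log2 fold change of 1.92 and an adjusted p of 3.3e-19 (SE 0.0432). Cd80 rose from 50.3 ± 3.09 to 254 ± 7.72 CPM, whereas its partner Cd86 rose 1.92-fold, from 162 ± 2.5 to 310.4 ± 10.5 CPM. The Notch ligand Dll4 rose from 0.367, 0.171 and 0.31 CPM to 13.8, 14.2 and 17.0 CPM, which was less than the 33.4 ± 5.12 CPM of WTL. Cd70, a costimulator of the TNF family, rose from 1.14 to 20.1 CPM. Ccr7, the receptor that guides dendritic cells to lymph nodes, was already at 1309 ± 76.8 CPM in WT and rose 1.31-fold. The only member that fell was Pdcd1lg2, encoding the inhibitory ligand PD-L2, by 0.79 from 74.8 ± 2.38 CPM.

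MHC class II presentation hardly moved beside this. None of 12 genes was called, 11 lay within 1.5-fold and the median was -0.14. H2-Ab1, a chain of I-A, was at 2043, 2051 and 2086 CPM in WT and at 2209, 2263 and 2463 CPM with both agents, a log2 fold change of 0.17 that passed (adjusted p = 0.000721) but became -0.05 with limma on log2(TPM + 1). H2-Aa and Cd74 did not pass, at 2559 against 2616 CPM and 8387 against 8710 CPM. Ciita, the master regulator of the class, fell by 0.29 and H2-DMa, which loads peptides and shared reads with other genes in all 12 libraries, fell by 0.62.

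Of 15 inflammatory enzymes tested, 6 were called higher and 2 lower, with a median of 0.72. Ptgs2, the inducible cyclooxygenase COX-2, was at 98.8, 102 and 92.7 CPM in WT and at 3063, 3229 and 3564 CPM with both agents, a log2 fold change of 5.07 (SE 0.0905). Its constitutive counterpart Ptgs1 fell from 17.4 ± 2.03 to 2.99 ± 0.242 CPM, and the prostaglandin E synthase Ptges rose from 19.7 to 129 CPM. Alox5, which starts leukotriene synthesis, was the other gene called lower, from 2.74 to 1.08 CPM. Acod1, which makes itaconate, rose 2.29-fold from 2542 ± 125 CPM, and Nos2, the inducible nitric oxide synthase, rose 4.34-fold from 54 ± 1.76 CPM. Slc7a2, the arginine transporter that feeds Nos2, rose from 457 ± 14.8 to 3666 ± 74.4 CPM. Arg1 had too few counts to be tested. Ch25h, which makes 25-hydroxycholesterol, was at 20.1, 21.9 and 21.8 CPM and at 24.3, 30.1 and 21.7 CPM. Its groups overlapped, and its small rise of 0.26 no longer passed without WTL + JSH23 replicate 2 (adjusted p = 0.129).

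Interferon-stimulated genes fell. Of 37 tested, 31 passed as lower and 4 as higher, 6 were called lower and none higher, and 16 lay within 1.5-fold, with a median of -0.68. With limma on log2(TPM + 1) the number called was 11. Ifit3, an antiviral protein of the IFIT family, was at 640.1, 695 and 659.7 CPM in WT and at 165, 169 and 161 CPM with both agents, 4.04-fold lower (log2 fold change -2.01, SE 0.0404, adjusted p = 5.63e-20). Ifit3b, its near copy, stood at 113, 121 and 114 CPM and at 17.6, 18.7 and 14.4 CPM. Both shared reads with other genes in all 12 libraries, so that their split is uncertain, but both moved the same way. Ifit2, which shared none, fell by 1.5 from 1671 ± 91 CPM. Stat2, which carries the interferon signal with Irf9, fell by 0.71 and Irf9 was at 140.3 and 139.7 CPM. Isg15, a ubiquitin-like modifier, did not follow. It rose from 464, 476 and 461 CPM to 521, 547 and 664 CPM, 1.24-fold and within the bound, although not with limma on log2(TPM + 1) (log2 fold change 0.07, adjusted p = 0.428). Oasl1 and Gbp5 rose by 0.55 and 0.47. In the same list the median log2 fold change against WT was 0.30 with LPS alone and -0.65 with JSH-23 alone.

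The stretch upstream of Ifit3b (chr19:34607743-34607862, plus strand) is shown. Ifit3b held a match, which was required for printing, and had the lowest combined level relative to WT in the list. Capitals mark matches to the interferon-stimulated response element, searched as GAAA, any 2 bases and GAAA again, on both strands.
Ifit3b: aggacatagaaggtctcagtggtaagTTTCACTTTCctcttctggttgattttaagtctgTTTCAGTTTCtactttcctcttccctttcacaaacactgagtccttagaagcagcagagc
The stretch of Ifit3 (chr19:34583347-34583466) was identical in all 120 bases. The element was found in 15 of 29 listed genes with a promoter (51.7%), in 5 of the 29 genes with a promoter among the 42 below all other groups (17.2%), in 7.20% of genes called lower that have a promoter, in 3.48% of tested genes and in 3.46% of all genes of the table.

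Antioxidant genes listed as targets of Nrf2 rose. Of 23, 21 passed as higher, 10 with more than 2-fold and none was called lower, with a median of 0.99. Sqstm1, the autophagy adaptor p62, was at 1305, 1295 and 1337 CPM in WT and at 5872, 5753 and 7100 CPM with both agents, with a log2 fold change of 2.25 and an adjusted p of 6.22e-18 (SE 0.0606). WTL and WT + JSH23 were at 3303 and 2954 CPM, so that each agent alone gave about the same intermediate level. Hmox1, which degrades haem, was at 780.1, 802 and 766 CPM and at 2773, 2607 and 3427 CPM with both. It stood at 2638 CPM with JSH-23 alone, from which the combined group did not differ past the threshold (log2 difference 0.15, adjusted p = 0.0569), and at 821 CPM with LPS alone. Srxn1, sulfiredoxin, rose from 352 to 1513 CPM, and the glutathione synthesis genes Gclc and Gclm and the cystine transporter Slc7a11 rose by 1.5, 1.1 and 1.66. The enzymes of the pentose phosphate pathway Tkt and G6pdx fell by 0.32 and 0.3. By group, the summed level of the list was 26816 to 28076 CPM in WT, and 49163, 49164 and 54305 CPM in the combined libraries, highest in replicate 3.

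The integrated stress response rose in the same samples. Of 30 tested, 28 passed as higher, 16 with more than 2-fold, and 1 passed as lower, with a median of 1.09. Gdf15 (chromosome 8, 70629393 to 70632456), a cytokine of stressed cells, was at 1.22, 1.45 and 2.24 CPM in WT and at 94.8, 92.8 and 161 CPM with both agents, with a log2 fold change of 6.16 and an adjusted p of 2.67e-15 (SE 0.242), and 5.86 without replicate 3. Trib3, a pseudokinase induced by ATF4, was at 0.765, 0.654 and 1.1 CPM and at 9.92, 10.6 and 17 CPM, 14.9-fold higher. Its log2 fold change was 3.90, and 3.63 without replicate 3. Replicate 3 was again the highest, and WTL was at only 0.522 ± 0.13 CPM. Chac1, which degrades glutathione, rose from 0.178 ± 0.0328 to 9.35 ± 2.47 CPM (log2 fold change 5.69, and 5.46 without replicate 3), and asparagine synthetase Asns from 4.99 ± 0.248 to 55.2 ± 10.2 CPM. Of the transfer RNA synthetases Aars and Cars were called higher, at 1.14 and 1.39, and Atf4 itself rose by 1.34. Its partner Atf3 fell from 375 ± 11.6 to 304 ± 35.9 CPM, by 0.31, and Ddit3, the death-associated factor CHOP, rose by 0.24 and lay within 1.5-fold. The summed level of the list was 1867 to 1916 CPM in WT and 3314, 3324 and 3973 CPM in the combined libraries.

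The stretch upstream of Chac1 (chr2:119350992-119351111, plus strand) is printed. Chac1 held a match, which was required for printing, and had the largest rise after Gdf15 in the list. Capitals mark a match to the element read by ATF4 with C/EBP factors, searched as TGATGNAA on both strands.
Chac1: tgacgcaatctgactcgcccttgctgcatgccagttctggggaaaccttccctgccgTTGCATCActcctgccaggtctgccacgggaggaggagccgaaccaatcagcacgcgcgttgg
The element was found in 7 of 26 listed genes with a promoter (26.9%), in 2.51% of tested genes and in 3.91% of all genes of the table. The antioxidant response element of Nrf2, searched as TGACNNNGC, was found in 5 of 19 Nrf2 targets (26.3%), in 13.8% of tested genes and in 11.5% of all.

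The unfolded protein response of the endoplasmic reticulum stayed near WT. None of 21 genes was called, 20 lay within 1.5-fold and the median was -0.02. Hspa5, the chaperone BiP, was at 738, 762 and 719.8 CPM and at 919, 899 and 914 CPM, 1.23-fold higher, whereas with LPS alone it reached 1320 CPM. Xbp1 fell by 0.5 and Sel1l rose by 0.48. Heat shock proteins rose with 17 of 17 passing and 4 called, with a median of 0.55. Hspa1a and Hspa1b, which are near-identical and share reads, rose from 34.4 to 124 CPM and from 40 to 136 CPM, and Hspa8, their constitutive relative, rose by 0.4. With limma on log2(TPM + 1) the number called was 2.

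Genes of glycolysis and of cholesterol synthesis changed in both directions, mostly by less than 2-fold. Of 19 glycolysis genes 8 passed as higher and 7 as lower, and of 23 cholesterol genes 10 and 10. None of 19 glycolysis genes was called and 12 lay within 1.5-fold, with Slc2a1, the glucose transporter GLUT1, rising by 0.81 and Ldha, lactate dehydrogenase A, falling by 0.6. Of 23 genes of cholesterol synthesis and uptake, 17 lay within 1.5-fold. Hmgcs1 was at 272 and 259.9 CPM, and Dhcr7, which makes the last step, was called lower, from 11.4 ± 0.858 to 4.8 ± 0.318 CPM. The aryl hydrocarbon receptor Ahr rose from 26.7 ± 1.48 to 75.4 ± 6.42 CPM, and its repressor and target Ahrr fell from 167, 173 and 167 CPM to 23.5, 26.5 and 21.7 CPM, 7.05-fold lower. Cyp1b1, another target, was at 9.66 and 10.2 CPM, Tiparp rose by 0.73, and Cyp1a1 had 0 counts in the 6 libraries. The metallothioneins Mt1 and Mt2 rose by 0.37 and 0.95.

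Genes of cell death were mixed. Of 9 inflammasome genes, 1 was called higher and 2 lower. Nlrp3, the sensor of the inflammasome, rose from 93.2, 93.9 and 91.6 CPM to 419.8, 434 and 444 CPM, while its adaptor Pycard (ASC) fell from 45.5 ± 1.02 to 19.9 ± 0.872 CPM, the sensor Nlrp1b fell by 1.86 and the pore protein Gsdmd fell by 0.63. In the BCL2 family, the survival gene Bcl2l1 (BCL-XL) rose 5.28-fold from 32.7 ± 0.994 CPM, the near-identical Bcl2a1 copies rose by 0.75 to 0.83, and the pro-death genes Pmaip1 and Bbc3 fell by 0.97 and 0.75, whereas Bid and Bcl2l11 rose by 1.34 and 0.7. Of 15 p53 targets, 4 passed as higher and 8 as lower. Eda2r, Mdm2 and Cdkn1a were called higher at 1.57, 1.31 and 1.04, and Sesn1 was called lower at -1.19 (adjusted p = 8.47e-09). With limma on log2(TPM + 1) the number called was 2.

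Cell cycle genes fell. Of 26, 22 passed as lower and 11 were called lower, with a median of -0.93. The mitotic kinase Plk1 was at 5.08, 4.81 and 5.28 CPM in WT and at 0.886, 0.637 and 0.605 CPM with both agents, 7-fold lower. Cyclin A2 (Ccna2) fell from 9.96 ± 1.58 to 1.64 ± 0.31 CPM. Mki67, widely used as a marker of dividing cells, went the other way. It stood at 85.1, 86.6 and 87.8 CPM in WT and at 377, 371 and 371 CPM in WTL + JSH23, with a log2 fold change of 2.11 and an adjusted p of 3.98e-20 (SE 0.0415), and at 579.7 ± 20.3 CPM in WTL and 48.7 ± 2.73 CPM in WT + JSH23. Only Tyms and Ccne1 rose besides, by 0.74 and 0.56.

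Markers of cell identity were checked for shifts in composition. Of 19 dendritic cell genes, 2 were called higher, 3 were called lower and 11 lay within 1.5-fold. The transcription factors Irf4 and Zbtb46 were called higher, Irf4 from 132, 114 and 123 CPM to 338, 337 and 316 CPM, and Irf8, Batf3, Flt3 and Sirpa lay within 1.5-fold. Itgax fell by 0.11 (adjusted p = 0.0143, and 0.0864 without WT replicate 5). Called lower were Clec9a, a receptor of cross-presenting dendritic cells, from 3.58 ± 0.53 CPM in WT (log2 fold change -1.82), Kmo, an enzyme of tryptophan breakdown, from 3.4 ± 0.344 CPM (log2 fold change -1.57), and Csf2rb. Csf2rb, the shared β chain of the GM-CSF receptor, fell from 2559 ± 30.2 to 1246 ± 21.3 CPM and shared reads with other genes in all 12 libraries. Cd209a had too few counts to be tested.

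Of 14 macrophage markers tested, 2 were called lower, 8 passed as lower and 3 as higher, with a median of -0.46, and 5 were called with limma on log2(TPM + 1). Fcgr1, the receptor CD64, was at 195, 212 and 201 CPM in WT and at 41.1, 47.2 and 36.3 CPM with both agents, a fall by 2.28 on the log2 scale, whereas Adgre1 (F4/80), Mertk and Cd68 lay within 1.5-fold. The summed level of the macrophage list ran from 4930 to 5196 CPM in WT and from 3812 to 3985 CPM with both agents, that of 11 tested neutrophil markers from 339 to 355 and from 289 to 315 CPM, and of the neutrophil genes Lcn2, lipocalin 2, was called higher, at 1.07 (but under 2-fold without WTL + JSH23 replicate 2 and with limma on log2(TPM + 1)), and Ly6g was at 0 to 4 counts in the 6 libraries. Hba-a1 and Hba-a2 had 0 counts in the 6 libraries, Hbb-bs had less than 1 expected count in each, and Hbb-bt had 0 in WT and 3, 0 and 2 in the combined libraries. Ppbp, a chemokine of platelets, rose from 28.1, 32.7 and 30.3 CPM to 107, 112 and 112 CPM and was at 113 CPM with JSH-23 alone. The part of cell composition in the results was not tested. None of 13 mitochondrially encoded mRNAs was called, and 11 lay within 1.5-fold.

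To find where the 2 agents together took the cells outside the range of either alone, a gene was required to differ by more than 2-fold, in the same direction, from WT, WTL and WT + JSH23, with the largest of the 3 p values adjusted over all genes. This held for 45 genes above (0.313%) and 42 below (0.293%) the other groups. Without WTL + JSH23 replicate 3 the numbers were 53 in all and 24 above, and 24 of the 45 and 27 of the 42 genes remained. The 12 genes of the naming rule (6 in each direction) kept the call in each alternative that was run. Gdf15 led, at 116 ± 39 CPM against 26.4 ± 5.63 CPM in WT + JSH23, 12.4 ± 0.61 CPM in WTL and 1.64 ± 0.535 CPM in WT, a smallest log2 difference of 2.13 (adjusted p = 6.75e-09). Cxcl5, a neutrophil attractant, was at 263, 268 and 233 CPM with both agents, against 61.9 ± 5.01 CPM with LPS and 35.1 ± 1.34 CPM with JSH-23. Il1f9, which encodes IL-36γ, was at 336, 329.9 and 343 CPM against 92.1 ± 5.35 and 133 ± 9.01 CPM.

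The other genes above all groups were Samd11, Ampd3, an AMP deaminase, and Procr, the protein C receptor. Procr stood at 941, 924 and 1164 CPM, against 441 ± 9.8 CPM in WTL, 403 ± 42.9 CPM in WT + JSH23 and 130.5 ± 3.76 CPM in WT. Samd11 rested in part on replicate 3, at 13.8, 10.7 and 29.8 CPM against 1.03 ± 0.143 CPM in WT, a log2 fold change of 4.11 that was 3.57 without that library. Samd11 and Ampd3 shared reads with other genes in all 12 libraries and overlap another protein-coding gene. Of the lists, Fosl1 and Chac1 were also above. Fosl1 was at low levels, 0.0678 CPM in WT and 1.12 CPM with both agents. It shared reads with other genes in 11 libraries and overlaps another protein-coding gene.

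**Figure D4:**
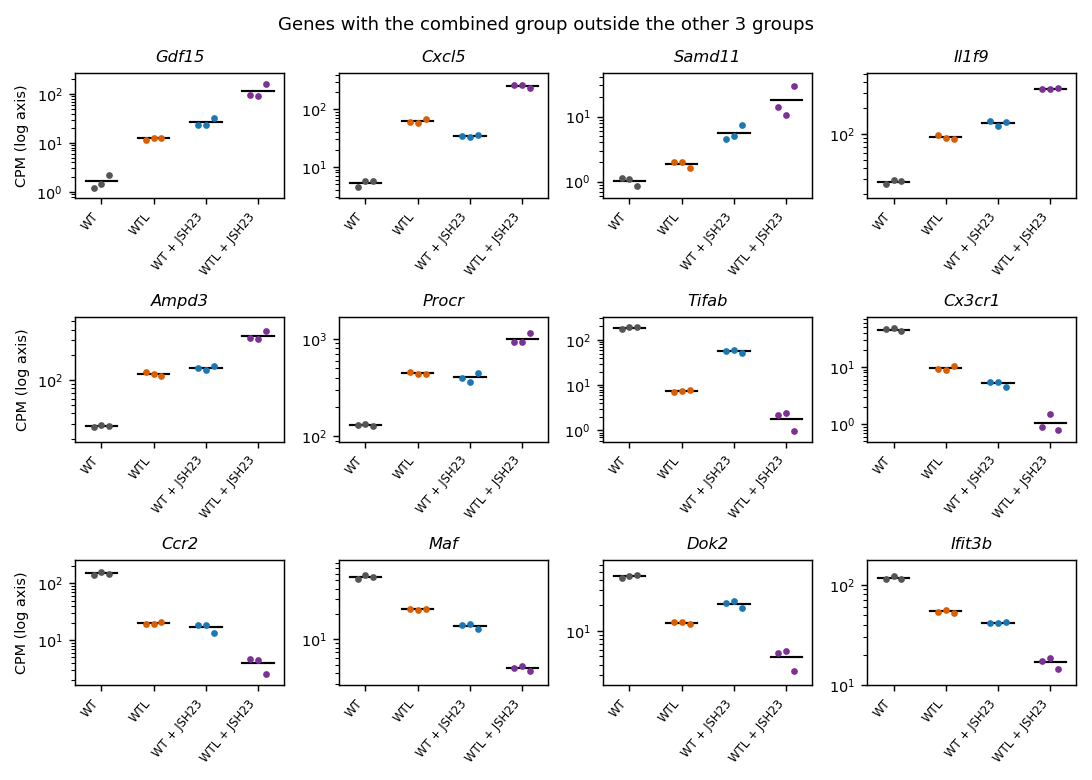
CPM on a log axis in each of the 3 libraries (points) of the 4 groups, with the group mean as a bar, for the 6 genes above and the 6 genes below all other groups that the naming rule selected. In each panel the 3 combined libraries lie outside the range of the other 9, and WT lies at the opposite end.

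Below the other groups stood Cx3cr1 and Ccr2, with Tifab, Maf, Dok2 and Ifit3b. Tifab (chromosome 13, 56173704 to 56178885), a relative of the TRAF-binding adaptor TIFA, had the largest fall among the named genes. It was at 179, 193 and 190.1 CPM in WT and at 2.16, 2.39 and 0.951 CPM with both agents, 100.2-fold lower (log2 fold change -6.65, SE 0.117). It stood at 7.5 ± 0.447 CPM in WTL and 57.1 ± 5.57 CPM in WT + JSH23. Maf, a transcription factor of macrophages, fell from 54.9 ± 3.53 to 4.57 ± 0.312 CPM and was at 22.6 ± 0.547 and 14.5 ± 1.17 CPM with LPS and with JSH-23 alone. Dok2, an adaptor that dampens receptor signalling, fell from 44.1 ± 2.05 to 4.85 ± 1.3 CPM. Among the listed genes C3ar1, P2ry6, Ifit3, Ahrr, Plk1 and Ccna2 also lay below all other groups.

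The remaining large changes stood nearer to a single agent, although the other agent alone moved these genes the same way. Shisa3, which acts in the endoplasmic reticulum on Wnt and FGF receptors, rose from 0.43 ± 0.106 to 25.5 ± 2.12 CPM. It was at 38 ± 5.07 CPM with LPS and at 0.935 ± 0.272 CPM with JSH-23. Il6ra, the receptor chain for IL-6, fell from 44 ± 2.73 to 3.25 ± 0.398 CPM. It was at 4.5 ± 0.23 CPM with LPS and at 26.1 ± 2.02 CPM with JSH-23. Both differed from WTL past the threshold, by -0.58 and -0.46 on the log2 scale. Ppargc1b, a coactivator of mitochondrial genes, fell from 14.2 ± 1.73 to 1.18 ± 0.514 CPM. It was at 0.837 ± 0.23 CPM with LPS and at 7.03 ± 0.597 CPM with JSH-23. Asb2, a substrate receptor of a ubiquitin ligase, fell from 20.2 ± 0.572 to 1.59 ± 0.18 CPM. It was at 2.1 ± 0.172 CPM with JSH-23 and at 7.3 ± 1.14 CPM with LPS.

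A few genes had 0 counts in all 3 libraries of a group and were picked after their values were seen. The keratin gene Krt16 had 0 counts in WT and 44 to 52 counts per library with both agents, at least 61-fold higher against a floor of 3 counts over the group, and Armcx4 was at least 52.8-fold higher. Lpar5, a lysophosphatidic acid receptor like Lpar6, had 0 counts in WTL + JSH23 and 39 to 57 in WT, at least 39.9-fold lower.

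Finally, levels within 1.5-fold of WT did not always mean that the agents left a gene alone. Among the genes within the bound, those farthest from WT with LPS alone or with JSH-23 alone were picked as a description, without a test. Rapgef2, an activator of the small GTPase Rap, was at 136, 142 and 133 CPM in WT, at 475 ± 4.31 CPM with LPS, at 54.3 ± 2.67 CPM with JSH-23 and at 183, 198 and 168 CPM with both. Gpr84, a receptor for medium-chain fatty acids, was at 36.2 ± 1.85 CPM in WT, 109 ± 8.49 CPM with LPS, 7.9 ± 0.19 CPM with JSH-23 and 28.6 ± 5.12 CPM with both. These and Ch25h stood above WT with LPS alone and below it with JSH-23 alone.

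**Figure D5:**
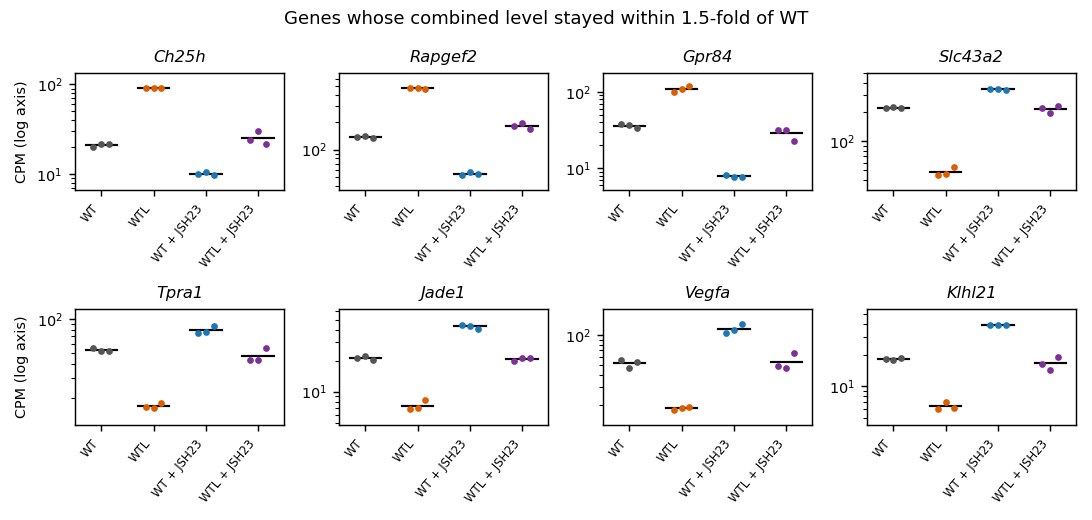
CPM on a log axis in each of the 3 libraries (points) of the 4 groups, with the group mean as a bar, for 8 genes within 1.5-fold of WT in the combined group. In each panel WTL and WT + JSH23 lie on opposite sides of WT, and WTL + JSH23 lies close to WT.

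The opposite pattern was seen for Slc43a2, a transporter of large neutral amino acids, at 219, 223 and 219 CPM in WT and at 222, 197 and 229 CPM with both agents. It was at 48.2 ± 4.8 CPM with LPS and at 344 ± 6.94 CPM with JSH-23, and the combined libraries overlapped those of WT. Jade1, a subunit of a histone acetyltransferase complex, was at 21.2 ± 1.06 CPM in WT, 7.32 ± 0.877 CPM with LPS, 43 ± 1.99 CPM with JSH-23 and 20.7 ± 0.916 CPM with both. Vegfa, the growth factor of blood vessels, followed the same order, at 51.8 ± 4.81, 18.5 ± 0.562, 115 ± 11.5 and 53.9 ± 10.3 CPM. Tpra1, Klhl21 and Acvrl1 were further members with this order, and Spata13 and Apol7c shared that of Rapgef2. Acvrl1 rose by 0.27 (adjusted p = 0.000413) but no longer passed with limma on log2(TPM + 1) (0.21, adjusted p = 0.0691). Whether others of these genes passed the adjusted p depended on the processing or on single libraries, among them WTL + JSH23 replicate 3. Spata13 fell by 0.32 (adjusted p = 0.0143) and without it was at -0.15 (adjusted p = 0.104), whereas Tpra1 and Klhl21, at -0.17 (adjusted p = 0.0572) and -0.15 (adjusted p = 0.102), passed without it at -0.30 (adjusted p = 0.000178) and -0.25 (adjusted p = 0.00512). Apol7c, at 1687 ± 13.2 CPM in WT and 1287 ± 64.5 CPM with both, fell by 0.39 and shared reads with other genes in 11 libraries. Ctcf, intact in these cells, was at 64, 61.1 and 64.2 CPM in WT and at 56, 52.5 and 52.8 CPM with both agents, 1.17-fold lower (adjusted p = 0.000128).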

How the data were processed

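RNA-seq of 12 BMDC libraries in 4 groups of 3 was used. Per the labels and the study's methods, the authors aligned reads to mm10 with STAR 2.6.0c and quantified genes with RSEM on GENCODE models, whose release is not given in the sources used here. In the deposited expected counts a read pair that matches more than 1 gene is shared out among these genes, and 7.75% to 8.52% of the 55335 genes listed had a fractional value per library. The TPM values deposited by the authors are scaled by transcript length to the same total in each library. The labels name a ribosomal RNA depletion kit and the methods a polyA kit for RNA selection.

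Expected counts were rounded, genes were filtered with filterByExpr (14357 kept), libraries were scaled by TMM, with factors of 1.08 to 1.09 in WT and 0.939 to 0.956 in WTL + JSH23, and edgeR 4.0.16 in R 4.3.3 (glmQLFit, glmQLFTest) was fitted to all 12 libraries with a mean per group (8 residual degrees of freedom). P values were adjusted by Benjamini-Hochberg over all genes. SE is the absolute log2 fold change divided by the square root of F. For the comparison with all other groups the largest of 3 p values per gene was adjusted. The pipeline was tested on simulated data in which only WTL + JSH23 differed from the other groups. The simulation held fewer changed genes than the real data and no effect of either agent alone, so those conditions were not checked. Symbols came from GENCODE M21 (55154 identifiers matched without version). Promoters came from RefSeq (GRCm38.p6). DESeq2 1.42.0 and limma 3.58.1 on log2(TPM + 1) served as alternatives. The members, the 29 lists (511 symbols) and the naming rule were chosen with earlier results of these data known. The rule names 25 fixed genes, the 8 largest rises and falls among called protein-coding genes with an official symbol, over 3 counts in every library of the 2 groups, a mean of 10 CPM or more in whichever group was higher and no overlap, the 6 genes farthest above and below all other groups, the 3 genes within 1.5-fold of WT that were farthest from it with either agent in each direction, and the 2 largest rises and falls of each list. Further members of the lists are described by their values. Some members of the lists are not reported here by name, and the counts of the lists include them.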

Additional observations from a re-analysis of the deposited data

How the results depend on the processing

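The number of genes called between WTL + JSH23 and WT stayed within 1.5 times of 2165 with DESeq2, DESeq2 size factors, upper quartile scaling, other low-count filters and a fit of the 6 libraries alone. It was 8922 (4414 higher, 4508 lower) with no fold threshold and 1198 (439 higher) with limma on log2(TPM + 1), in which the pseudocount shrinks the change of low genes. Genes outside all other groups numbered 87 (45 above, 42 below), 990 (525 above, 465 below) with no fold threshold, 33 (14 above, 19 below) with limma on log2(TPM + 1), and 53 (24 above) without WTL + JSH23 replicate 3. Leaving out each library in turn gave 2136 to 2279 genes called, 1016 to 1088 higher, 1104 to 1192 lower, 53 to 98 outside all other groups, 24 to 53 above, 29 to 45 below and 6463 to 6889 within 1.5-fold. Of the values of named genes under the alternatives other than leaving out a library, 963 kept direction and side of the threshold, 16 no longer passed, 8 newly passed and 3 reversed, all 3 with limma on log2(TPM + 1), where the log2 fold change was -0.05 for H2-Ab1, -0.13 for H2-Eb1 and -0.10 for mt-Co1, with the median of all genes at -0.16. When libraries were left out, 1683 kept both, 18 no longer passed and 3 newly passed. The share of called genes that were higher was 43% with upper quartile scaling against 48.3%. No paired analysis was possible because the 2 groups share no replicate number and the numbers coincide with JSH-23. Depth limits the genes at the lowest levels.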
